A study of Homo sapiens with 36 samples.

Results

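The 10 genes described here are the classical markers and regulators of the epithelial-mesenchymal transition (EMT): the cadherins CDH1, CDH2 and CDH3, the mesenchymal markers VIM and FN1, and the transcription factors SNAI1, SNAI2, TWIST1, ZEB1 and ZEB2. They are listed by name, a rule that uses no measured value, although the list was drawn up with earlier results of these data known, and each of the 10 was matched by its symbol to 1 of the 60725 Ensembl genes in the expression tables. Their levels were compared over all 18 groups and 36 libraries of the series.

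In EMT, epithelial cells lose their junctions and cell polarity and gain a spindle shape and motility. CDH1 encodes E-cadherin, the adhesion molecule of epithelial adherens junctions, and its replacement by N-cadherin, the product of CDH2, is a textbook hallmark of the process. CDH3 encodes P-cadherin, which marks the basal and myoepithelial layer of the breast, VIM encodes the intermediate filament vimentin, and FN1 encodes the matrix protein fibronectin. SNAI1, SNAI2, ZEB1 and ZEB2 are zinc finger repressors that bind E-boxes in the CDH1 promoter, and TWIST1 is a basic helix-loop-helix factor that acts with them. Basal-like breast lines such as MCF-10A already combine E-cadherin with some vimentin, and MDA-MB-231 is a mesenchymal-like line.

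RNA from 2 breast cell lines was sequenced after knockdown of individual regulators with small interfering RNA (siRNA). ER-Src cells are MCF-10A cells, a non-transformed mammary epithelial line, in which v-Src is fused to the estrogen receptor's ligand-binding part and tamoxifen switches the oncoprotein on, and all 10 ER-Src groups carry this fusion. Cells were in vehicle (ETH, ethanol, labelled non-transformed) or in tamoxifen (TAM, labelled transformed), and in each state they had received control siRNA (Ctrli) or siRNA against YAP1 (YAPi), WWTR1, the gene of TAZ (TAZi), STAT3 (STAT3i) or JUNB (JUNBi). MDA-MB-231, an established triple-negative breast cancer line, was sequenced as 2 sets, the first with Ctrli, YAPi, TAZi, YAPi TAZi together and TEADi (against the TEAD factors) and the second with its own Ctrli, JUNBi and STAT3i. YAP and TAZ are the coactivators at the end of the Hippo pathway, TEAD proteins are their DNA-binding partners, and STAT3 and JUNB, an AP-1 subunit, are inducible transcription factors. The labels name tamoxifen together with AZD0530, an inhibitor of Src family kinases, as the inducing treatment, and which libraries received AZD0530, and for how long TAM was given, is not stated for single libraries in the sources used here. Each group had 2 libraries, and the labels do not say whether these were separate cultures, so the p-values measure the spread between these libraries, which may be technical. Knockdowns were made with pools of siRNAs, so 1 line and 1 pool stand behind each condition.

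Depth differed between the parts of the series. Expected counts summed to 6419720 to 19161700 in the ER-Src libraries, 7290499 to 18076158 in MDA-MB-231 set 2 and 13456784 and 13534560 in the 2 set 1 controls, whereas the 8 set 1 knockdown libraries held 1411304 to 2784605. A group of 7 abundant RNAs without poly(A) tails took 8.71% to 11.8% of counts in the set 1 knockdowns and 0.0028% to 0.0041% in the set 1 controls. The sample titles name no library type, so the nature of this difference is not known. It and the knockdown cannot be told apart in any comparison between these knockdowns and controls. Within the set 1 knockdowns, the deposited length minus effective length also differed. It was 48.0 bases in the first library of each group and 74.56 to 74.57 bases in the second. In ER-Src cells, the deposited length minus effective length was 49.0 bases in all 8 STAT3i and JUNBi libraries and 49.47 to 49.49 bases in all 12 Ctrli, YAPi and TAZi libraries. This difference and the knockdown cannot be told apart where STAT3i or JUNBi is compared with Ctrli, and its part in those results was not tested. The siRNA targets were lower in their own knockdowns than under Ctrli, with YAP1 at 4.31 to 5.74 TPM under YAPi against 26.8 to 38.5 TPM under Ctrli in ER-Src cells. The JUNB difference in ETH was the single one tested that missed the threshold (log2 fold change -1.16 ± 0.39 SE, adjusted p = 0.064, DESeq2). In set 1, WWTR1 was also lower under YAPi (4.76 and 15.49 TPM) than under Ctrli (54.11 and 49.45 TPM). Among the set 1 knockdowns, TEAD2 and TEAD4 were lowest under TEADi. TEAD1 under TEADi (8.3 and 18.48 TPM) overlapped YAPi (18.35 and 29.64 TPM), and TEAD3 (3.3 and 3.56 TPM) lay within YAPi (2.95 and 5.83 TPM). Depletion of TEAD1 and TEAD3 by TEADi is thus not shown. No adjusted p was given for STAT3 under STAT3i in MDA-MB-231 set 2 (-2.41 ± 0.32 SE, unadjusted p = 8.4e-14). In ER-Src cells in TAM, JUNB was also lower under STAT3i, at 14.44 and 14.88 TPM against 54.35 and 71.05 TPM under Ctrli. JUNB was at 16.35 and 18.86 TPM under JUNBi in TAM. STAT3 was not lower under JUNBi in TAM, at 57.81 and 50.7 TPM against 44.15 and 33.8 TPM under Ctrli. The part of the lower JUNB level in the STAT3i results in TAM was not tested. Of the basal mammary markers, 6 of 7 were above 1 TPM in all 20 ER-Src libraries, with a summed level of 2308 to 4746 TPM, against 49.98 to 448 TPM in MDA-MB-231. Summed over 6 epithelium markers, the level was 122 to 300 TPM in the ER-Src libraries and 147 to 375 TPM in the set 1 knockdowns. It was higher in the set 1 controls, at 1331 to 1352 TPM, and in set 2, at 1339 to 1825 TPM. Of these 6 markers, 2 were below 1 TPM in every MDA-MB-231 library and 1 in every ER-Src library. In the set 1 controls the sum rests mainly on the keratins KRT19 (491.31 and 529.65 TPM), KRT8 (422.61 and 412.11 TPM) and KRT18 (403.61 and 392.69 TPM). The summed level of 7 fibroblast markers ran from 30.9 to 262 TPM over the ER-Src libraries and from 59.0 to 68.8 TPM over the 4 Ctrli libraries among them, and its part in the results was not tested. Of these 7 markers, 5 were below 1 TPM in every ER-Src library and 1 was above 1 TPM in all of them, so the sum rests on few genes. Because these are bulk samples, fewer cells of a type and less RNA per cell cannot be told apart.

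Promoter sequences were on hand for 5 of the 10 genes (CDH2, FN1, VIM, ZEB1 and ZEB2), in 12 windows from RefSeq on GRCh38.p14. Each was read over the 250 bases before a transcription start. FN1 is shown because its change passed the test in 12 of the 24 comparisons, more than for any other of the 10 genes, and ZEB1 because this window holds the E-box that the SNAI and ZEB factors recognise. Capitals mark matches, on either strand, to the AP-1 motif TGANTCA, the cyclic AMP element TGACGTCA, the TEAD motif GGAATG, the E-box CAGGTG or the STAT motif TTCNNNGAA. The FN1 window is chr2:215436069-215436318 on the minus strand and the ZEB1 window is chr10:31318966-31319215 on the plus strand.
FN1: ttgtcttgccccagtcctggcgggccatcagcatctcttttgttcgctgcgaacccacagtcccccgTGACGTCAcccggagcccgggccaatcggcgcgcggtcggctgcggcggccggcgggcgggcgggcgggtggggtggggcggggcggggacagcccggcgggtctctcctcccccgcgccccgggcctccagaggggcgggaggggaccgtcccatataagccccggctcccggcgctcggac
ZEB1: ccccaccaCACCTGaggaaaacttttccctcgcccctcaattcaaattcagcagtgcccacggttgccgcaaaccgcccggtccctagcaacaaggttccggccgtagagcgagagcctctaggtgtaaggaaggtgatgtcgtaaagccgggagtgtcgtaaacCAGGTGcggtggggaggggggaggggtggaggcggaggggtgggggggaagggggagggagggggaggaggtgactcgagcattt
The FN1 window had 1 match, to TGACGTCA, which is present in 1.6% of all 35116 windows, and this motif was added to the search after the sequence had been read. The ZEB1 window had 2 matches to CAGGTG, which 17.5% of all windows contain. ZEB1 had several windows, and the one shown held the most matches to this motif. Another, chr10:31318167-31318416, had 1 match and the others of ZEB1 had 0. The share of 17.5% is for single windows and does not apply to a window picked in this way. A match is a description of the letters and not evidence of binding.

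The levels are given in TPM, the deposited RSEM estimate of transcript abundance scaled for transcript length and library depth, which allows genes to be compared. Under control siRNA in ETH, VIM had the highest level of the 10 genes in ER-Src cells, at 240 ± 18.5 TPM (SD, n = 2), followed by CDH3 at 38.5 ± 2.40, FN1 at 26.2 ± 0.22 and CDH1 at 13.4 ± 1.68 TPM. CDH2, SNAI2 and TWIST1 came next at 4.85, 4.70 and 4.64 TPM on average, and the libraries of neighbours in that order overlapped. ZEB1 at 3.38 and ZEB2 at 1.63 TPM followed, and SNAI1 was nearly absent at 0.07 and 0.02 TPM, which rest on 3 and 1 counts. Of these 10 genes, the 3 cadherins, VIM, FN1 and the factors other than SNAI1 were thus all detected in the same non-transformed epithelial line.

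MDA-MB-231 cells showed another mixture. CDH1 had 0 counts in 12 of the 16 libraries and 12 counts over all 16, and TWIST1 had 0 counts in every one, which allows at most 0.166 to 2.13 CPM, depending on the depth of the library. CDH3 did not exceed 0.98 TPM or 11 counts and CDH2 did not exceed 1.47 TPM or 7 counts in any of the 16 libraries, whereas their lowest ER-Src values were 34.0 and 2.13 TPM. VIM lay between 369 and 2591 TPM in MDA-MB-231 and between 184 and 338 TPM in ER-Src cells, so the ranges of the lines did not overlap. ZEB1 was at 6.57 to 23.4 TPM in set 1, above every ER-Src library (2.37 to 5.74 TPM), but at 0.82 to 1.44 TPM in set 2, below every ER-Src library. The lines were sequenced separately and no test between them was made. The 7 RNAs without poly(A) tails took 9.43% to 11.7% of counts in the ER-Src libraries and 0.0036% to 0.0112% in set 2. The ranges above thus mix libraries that differ in this share. In the set 1 knockdowns, where that share was like the one in ER-Src cells, VIM was at 369 to 983 TPM. The set 1 controls and set 2 controls were both MDA-MB-231 with control siRNA and still differed widely, with VIM at 2524 and 2591 TPM in the former and 1185 and 817 TPM in the latter.

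**Figure D1:**
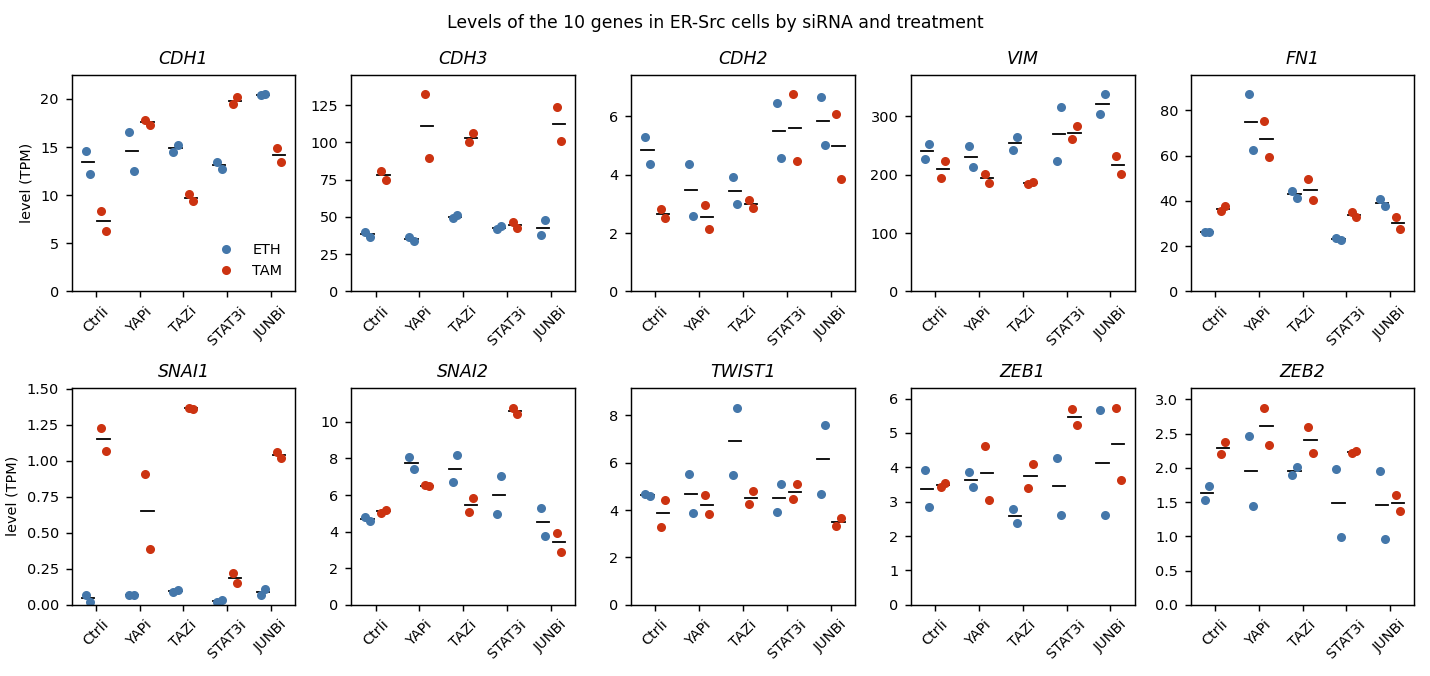
Level in TPM (linear axis, own scale for each gene) of the 10 genes in ER-Src cells, by siRNA on the horizontal axis, with ETH libraries in blue, TAM libraries in red and a black line at the mean of 2 libraries. CDH3 was at 74.9 to 81.2 TPM in TAM under Ctrli but at 42.6 to 46.4 TPM under STAT3i, and SNAI1 rose with TAM from 0.02 to 0.07 TPM to 1.07 to 1.23 TPM under Ctrli.

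The first comparison asked how the genes respond to Src activation, TAM against ETH under control siRNA. CDH3, FN1 and SNAI1 rose, none of the 10 fell, and the other 7 did not pass the test. All tests of expected counts used DESeq2 with Benjamini-Hochberg adjustment over all genes tested and a threshold of 0.01 on the adjusted p. In this comparison 6.21% of 15724 genes tested were called, and of the 10 genes, all tested, 3 were. With so few libraries a group, non-overlap in TPM was common among genes not called. Here the groups did not overlap for any of the 10 genes except ZEB1.

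CDH3 lies on chromosome 16 (68636189 to 68727468, plus strand, hg38), 9824 bases before CDH1 (68737292 to 68835537). Its level was 40.2 and 36.8 TPM in ETH and 81.2 and 74.9 TPM in TAM. Both TAM libraries were above both ETH libraries and the groups did not overlap (log2 fold change 1.15 ± 0.11 SE, adjusted p = 2.9e-25). The call held in each of the 4 fits that left out 1 library. CDH1, its neighbour, did not rise. Its level was 14.6 and 12.2 TPM in ETH and 8.40 and 6.31 TPM in TAM, so both TAM libraries were lower and the groups did not overlap, but the change in expected counts was -0.25 ± 0.18 SE (adjusted p = 0.63).

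FN1, on chromosome 2 (215360440 to 215436073, minus strand), had 26.4 and 26.05 TPM in ETH and 35.35 and 37.6 TPM in TAM, with no overlap (0.69 ± 0.10 SE, adjusted p = 1.3e-09), and this call also held in the 4 fits without 1 library. SNAI1, on chromosome 20 (49982980 to 49988886), went from 3 and 1 counts to 49 and 28 counts, or from 0.07 and 0.02 TPM to 1.23 and 1.07 TPM. Scaled for depth, its summed counts were 26.3 times as high in TAM, with an exact 95% interval of 9.86 to 98.9 that covers counting error only, and the fitted change was 4.80 ± 0.98 SE (adjusted p = 3.2e-05). It stayed a low gene in TAM, and its call was lost without the first ETH (adjusted p = 0.029), the second ETH (0.0182) or the first TAM library (0.0377). VIM was at 227 and 253 TPM in ETH and 195 and 224 TPM in TAM, with a change of 0.07 ± 0.12 SE in expected counts (95% interval -0.17 to 0.31, adjusted p = 0.94).

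CDH2, on chromosome 18 (27932879 to 28177946), was at 5.31 and 4.38 TPM in ETH and 2.82 and 2.51 TPM in TAM, but its change in expected counts was -0.24 ± 0.21 SE (adjusted p = 0.74). Among the factors, ZEB2 had the estimate nearest to the threshold, at 1.53 and 1.73 TPM in ETH and 2.20 and 2.37 TPM in TAM (0.81 ± 0.31 SE, unadjusted p = 0.0094, adjusted p = 0.092). ZEB1 (0.39 ± 0.23 SE, adjusted p = 0.48), SNAI2 (0.27 ± 0.23 SE, adjusted p = 0.74) and TWIST1 (0.09 ± 0.34 SE, adjusted p = 0.98) did not pass.

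Wider lists gave the surroundings of these changes. Of 21 mesenchymal list genes tested, 4 rose and 1 fell with TAM, among them TNC (tenascin C, 0.35 and 0.61 TPM in ETH and 25.9 and 22.6 TPM in TAM), LOX (the collagen crosslinking enzyme lysyl oxidase, 2.43 ± 0.15 SE, adjusted p = 6.9e-56) and THBS1 (thrombospondin 1), which fell by 1.33 on the log2 scale. Of 23 epithelial list genes, 2 rose and 0 fell, and these were ELF3 (4.05 ± 0.48 SE, adjusted p = 5.2e-15) and GRHL1 (2.49 ± 0.42 SE, adjusted p = 9.7e-08), both epithelial transcription factors. Of 12 cadherin partners and relatives, 4 rose, among them the desmosomal cadherin DSG3 and the catenin CTNND1, and of 12 other EMT factors, 1 rose, BHLHE40 (1.66 ± 0.17 SE, adjusted p = 1.2e-20). The median log2 change was 0.25 over the mesenchymal list, 0.04 over the epithelial list and 0.33 over the 10 genes, beside -0.01 over all genes tested.

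Relative to TAM Ctrli, CDH1, CDH3 and FN1 rose under YAPi, none of the 10 genes fell, and 10.7% of 14528 genes tested were called. CDH1 was at 17.8 and 17.3 TPM against 8.40 and 6.31 TPM under Ctrli, so both YAPi libraries were above both controls (1.58 ± 0.17 SE, adjusted p = 5.1e-19). FN1 was at 75.1 and 59.3 TPM against 35.35 and 37.6 TPM (0.95 ± 0.12 SE, adjusted p = 6e-14). CDH3 was at 132 and 89.85 TPM against 81.2 and 74.9 TPM (0.75 ± 0.12 SE, adjusted p = 4.7e-08). For each of the 3 genes the groups did not overlap in TPM, which was also so for the uncalled SNAI1 and SNAI2. The call of each of the 3 held without any 1 library. SNAI1 was at 0.91 and 0.39 TPM against 1.23 and 1.07 TPM (-0.89 ± 0.59 SE, adjusted p = 0.37), and ZEB2 was estimated higher by 0.58 ± 0.25 SE without passing (adjusted p = 0.094).

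In the epithelial list, 9 of 24 genes tested rose and 2 fell under YAPi in TAM, with a median log2 change of 0.54 beside 0.01 over all genes. The tight junction gene CLDN4 went from 0.12 and 0.11 TPM to 6.59 and 6.39 TPM, and JUP, which encodes plakoglobin, from 11.9 and 12.3 TPM to 23.4 and 25.65 TPM. In the mesenchymal list 3 of 20 rose and 6 fell, LOX by 2.46 and TNC by 1.22 on the log2 scale. Of 12 cadherin partners and relatives, 2 rose, the desmosomal genes DSC2 (1.95 ± 0.17 SE, adjusted p = 3.6e-29) and DSG3 (1.20 ± 0.11 SE, adjusted p = 1.8e-26), and of 12 other EMT factors 1 rose, HMGA2, a chromatin protein (1.25 ± 0.27 SE, adjusted p = 8.6e-05).

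In ETH, YAPi also raised FN1, and CDH1 in expected counts. Here 11.6% of 14793 genes tested were called, and of 9 of the 10 genes with an adjusted p, 2 were. FN1 was at 87.0 and 62.4 TPM against 26.4 and 26.05 TPM, without overlap (1.59 ± 0.13 SE, adjusted p = 2.4e-30). CDH1 rose by 0.99 ± 0.15 SE in expected counts (adjusted p = 1.1e-09), but its TPM of 16.6 and 12.5 overlapped the 14.6 and 12.2 TPM of Ctrli. SNAI2, at 8.07 and 7.43 TPM against 4.79 and 4.60 TPM, missed the threshold (0.66 ± 0.20 SE, adjusted p = 0.01 after rounding). CDH3 was at 36.3 and 34.0 TPM against 40.2 and 36.8 TPM (0.09 ± 0.12 SE, adjusted p = 0.7). The difference between the YAPi effect in TAM and that in ETH was 0.65 ± 0.16 SE for CDH3 (adjusted p = 0.014) and -0.65 ± 0.18 SE for FN1 (adjusted p = 0.047). None of the 10 genes passed the threshold of 0.01 for that interaction in DESeq2 (0 in edgeR), 3 had an unadjusted p under 0.05, and 0.498% of 15650 genes were called. The CDH3 interaction passed without the second ETH YAPi (adjusted p = 0.00948) or the second TAM YAPi library (0.00376), and that of FN1 without the second ETH YAPi library (0.00151). In ETH, 7 of 23 epithelial genes rose and 2 fell, the latter being KRT18 (-0.94 ± 0.12 SE, adjusted p = 2.3e-12) and EPCAM (-1.31 ± 0.20 SE, adjusted p = 4.4e-09), 5 of 20 mesenchymal genes rose and 5 of 12 cadherin partners and relatives rose.

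**Figure D2:**
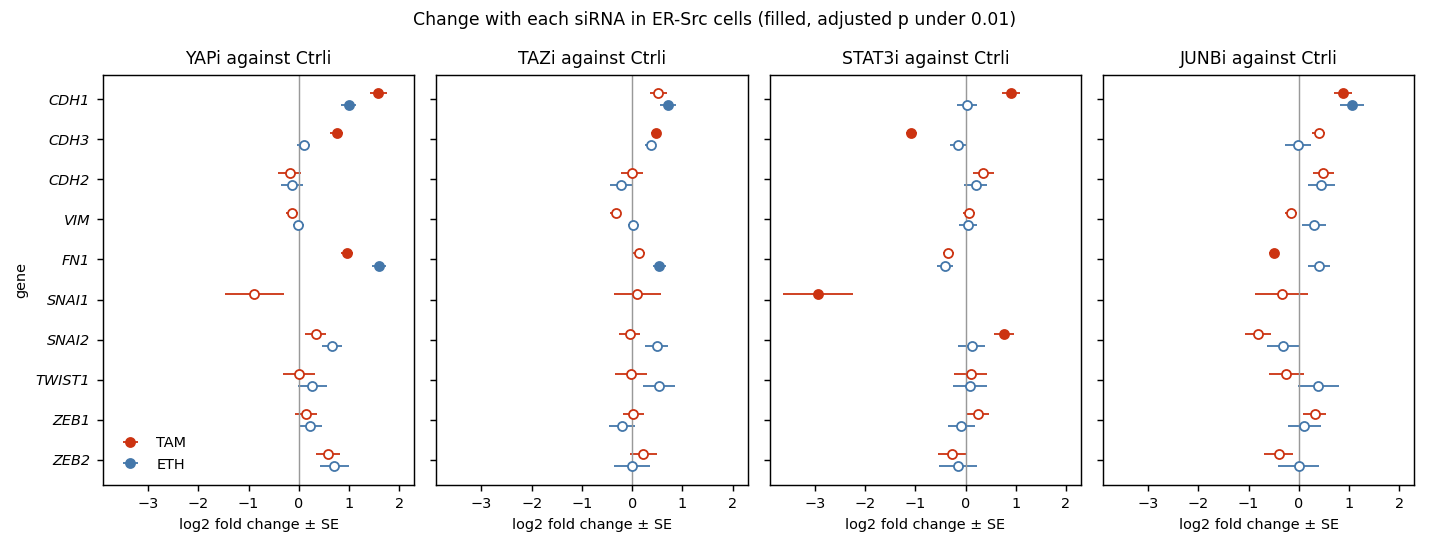
Log2 fold change of expected counts (horizontal axis, bars ± SE) of the 10 genes with each siRNA against Ctrli in ER-Src cells, in TAM (red) and ETH (blue), with filled points where the adjusted p was under 0.01 and no point where DESeq2 gave no adjusted p (SNAI1 in ETH). CDH1 was called under YAPi, STAT3i and JUNBi in TAM, at 1.58, 0.90 and 0.88, and CDH3 was called in opposite directions under YAPi (0.75) and STAT3i (-1.08).

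In TAM, CDH3 rose under TAZi, the siRNA against the gene of TAZ, from 81.2 and 74.9 TPM to 100 and 106 TPM without overlap (0.47 ± 0.10 SE, adjusted p = 0.00015), and the other 9 genes did not pass, with 3.42% of 13729 genes called. This CDH3 call was lost without the second Ctrli (adjusted p = 0.0392), the first TAZi (0.0358) or the second TAZi library (0.263), and with effective length offsets (0.31, adjusted p = 0.065). CDH1 was at 10.1 and 9.36 TPM against 8.40 and 6.31 TPM (0.52 ± 0.17 SE, adjusted p = 0.048). VIM was at 184 and 187 TPM against 195 and 224 TPM (-0.32 ± 0.11 SE, adjusted p = 0.055) and passed without the first Ctrli library (adjusted p = 0.00268). In ETH, CDH1 (0.71 ± 0.15 SE, adjusted p = 0.00014) and FN1 (0.54 ± 0.13 SE, adjusted p = 0.0011) rose in expected counts, with 5.24% of 14102 genes called. FN1 was at 44.4 and 41.4 TPM against 26.4 and 26.05 TPM, without overlap, whereas CDH1, at 14.4 and 15.3 TPM against 14.6 and 12.2 TPM, overlapped in TPM.

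Both ETH calls depended on single libraries. CDH1 lost its call without the first Ctrli (adjusted p = 0.14), the second Ctrli (0.103) or the second TAZi library (0.137), and FN1 without the first Ctrli (0.445), the second Ctrli (0.0249) or the first TAZi library (0.164). The interaction of TAZi with TAM was called for 0 of the 4 genes that had an adjusted p (CDH1, CDH3, VIM and FN1) in DESeq2 and 0 in edgeR, VIM (-0.37 ± 0.15 SE) and FN1 (-0.42 ± 0.17 SE) each had an unadjusted p of 0.017, and 1.6% of 4424 genes were called. In TAM, 2 of 18 mesenchymal genes rose and 5 fell, among the latter AXL, a receptor tyrosine kinase (-0.95 ± 0.13 SE, adjusted p = 3.9e-10), and ELF3 alone rose in the epithelial list (2.64 ± 0.18 SE). DSC3 and DSG3 were the 2 of 12 cadherin partners and relatives that rose in TAM and the 2 that rose in ETH.

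STAT3i changed 4 of the 10 genes in TAM, in both directions. CDH1 and SNAI2 rose, CDH3 and SNAI1 fell, and 8.22% of 14194 genes tested were called. CDH3 was at 46.4 and 42.6 TPM against 81.2 and 74.9 TPM under Ctrli (-1.08 ± 0.12 SE, adjusted p = 2e-17), so both libraries lay below both TAM controls and above the ETH controls at 40.2 and 36.8 TPM. SNAI1 was at 12 and 7 counts, 0.22 and 0.15 TPM, against 1.23 and 1.07 TPM (-2.94 ± 0.69 SE, adjusted p = 0.00046). CDH1 was at 19.4 and 20.2 TPM against 8.40 and 6.31 TPM (0.90 ± 0.17 SE, adjusted p = 6.1e-06). SNAI2, on chromosome 8 (48917598 to 48921740), was at 10.8 and 10.4 TPM against 5.04 and 5.16 TPM (0.76 ± 0.20 SE, adjusted p = 0.0024). In TPM, the groups did not overlap for any of the 4 genes, nor for the uncalled CDH2, VIM, FN1, TWIST1 and ZEB1, so non-overlap does not mark out the 4. The paralogs SNAI1 and SNAI2 moved in opposite directions.

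The CDH3 call held without any 1 library. SNAI1 lost its call in each of the 4 fits with 1 library left out (adjusted p = 0.0474 to 0.163) and so did SNAI2 (0.0562 to 0.301), while CDH1 lost it without the second Ctrli (0.0179) or the first STAT3i library (0.0148). FN1 was at 34.9 and 32.8 TPM against 35.35 and 37.6 TPM (-0.34 ± 0.11 SE, adjusted p = 0.017). In ETH, STAT3i called 0.189% of 19578 genes and none of the 9 of the 10 genes with an adjusted p in DESeq2 (0 in edgeR), and 1 had an unadjusted p under 0.05, FN1, at 23.8 and 22.6 TPM against 26.4 and 26.05 TPM (-0.41 ± 0.16 SE, adjusted p = 1). The interaction passed for CDH3 alone of the 10 genes, with 1.34% of 16447 genes called (-0.94 ± 0.19 SE, adjusted p = 6.6e-05), and it passed in all 8 fits without 1 library but not in edgeR (-0.92, adjusted p = 0.029). In TAM, 3 of 18 mesenchymal genes fell and 4 rose under STAT3i, with TNC lower by 4.39 ± 0.17 SE, LOX lower by 1.67 ± 0.16 SE and THBS1 higher by 1.46 ± 0.13 SE, 3 of 23 epithelial genes rose and 2 fell, ELF3 and GRHL1 being the latter, 2 of 11 other EMT factors fell, and of 12 cadherin partners and relatives 1 rose and 2 fell.

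JUNBi in TAM raised CDH1 and lowered FN1, with 6.9% of 13045 genes called. CDH1 was at 14.95 and 13.5 TPM against 8.40 and 6.31 TPM (0.88 ± 0.18 SE, adjusted p = 2.5e-05), and FN1 at 32.8 and 27.75 TPM against 35.35 and 37.6 TPM (-0.50 ± 0.11 SE, adjusted p = 0.00011), neither with overlap. CDH1 lost its call without the second Ctrli (0.0393) or the first JUNBi library (0.0688), and FN1 without the first Ctrli (0.166), the second Ctrli (0.0583) or the first JUNBi library (0.0437). The fall of FN1 also lost its call with effective length offsets (-0.45, adjusted p = 0.016) and in edgeR (adjusted p = 0.017). SNAI2 was at 3.94 and 2.87 TPM against 5.04 and 5.16 TPM (-0.81 ± 0.25 SE, adjusted p = 0.016) and CDH3 at 124 and 101 TPM against 81.2 and 74.9 TPM (0.39 ± 0.12 SE, adjusted p = 0.016), both short of the threshold. SNAI1, at 1.06 and 1.02 TPM, lay just under the control libraries (-0.34 ± 0.52 SE, adjusted p = 0.75). In TPM, the uncalled CDH2, CDH3, SNAI1, SNAI2, ZEB1 and ZEB2 did not overlap the controls either.

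In ETH, CDH1 alone rose under JUNBi, to 20.4 and 20.5 TPM (1.05 ± 0.24 SE, adjusted p = 0.00058), without overlap, with 2.8% of 15009 genes called. The call was lost without either Ctrli library (adjusted p = 0.588 and 0.595). VIM, at 304 and 338 TPM against 227 and 253 TPM, did not pass (0.31 ± 0.24 SE, adjusted p = 0.7), and passed only without the first JUNBi library (adjusted p = 0.00377). FN1 was at 40.6 and 37.7 TPM against 26.4 and 26.05 TPM in ETH (0.39 ± 0.22 SE, adjusted p = 0.44). Its interaction was called (-0.91 ± 0.21 SE, adjusted p = 0.0052), with 0.288% of 15949 genes called, but without any 1 of 6 of the 8 libraries the adjusted p rose above the threshold (0.0375 to 0.346), and in edgeR it was 0.26. The CDH3 interaction with JUNBi (0.39 ± 0.28 SE, adjusted p = 1) passed without the second ETH JUNBi library alone (adjusted p = 0.0086). In TAM, 5 of 18 mesenchymal genes fell and 3 rose, ITGA5, a fibronectin receptor subunit, by -1.43 ± 0.13 SE and THBS1 by 0.78 ± 0.11 SE, 2 of 21 epithelial genes rose, ELF3 and KRT8, 1 of 10 other EMT factors fell, TCF3, and of 12 cadherin partners and relatives DSG3 rose and CTNND1 fell.

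The TAM comparisons share the same 2 TAM Ctrli libraries and the ETH comparisons the same 2 ETH Ctrli libraries, so a deviation of these libraries enters each of them. CDH1 in TAM is an example of values side by side. Its mean was 7.36 TPM under Ctrli, 9.74 under TAZi, 14.2 under JUNBi, 17.55 under YAPi and 19.8 under STAT3i, and the 2 libraries of each neighbour in this order did not overlap. The order depended on the scale, since the change against Ctrli was larger under YAPi than under STAT3i in expected counts (1.58 and 0.90) and with effective length offsets (1.32 and 1.09). SNAI1 counts were higher in TAM than in ETH under every siRNA. Scaled for depth, its summed counts were 8.81 times as high in TAM as in ETH under YAPi (exact 95% interval 4.23 to 21.2), 14.8 times under TAZi (6.65 to 41.1), 8.18 times under STAT3i (1.97 to 72.4) and 11.5 times under JUNBi (5.65 to 27.4), again for counting error only. The interaction was not called for SNAI1 with YAPi, STAT3i or JUNBi (adjusted p = 1 in each), and DESeq2 gave no adjusted p with TAZi.

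Calls of CDH1 in ER-Src cells depended on the scale. RSEM weights a gene's length by the isoforms it assigns, and for CDH1 this length ran from 1887 to 4081 bases over the 20 libraries, so expected counts and TPM of CDH1 can move apart. With effective length offsets in the same test, the rise of CDH1 stayed called in TAM under YAPi (1.32, adjusted p = 4.4e-12), STAT3i (1.09, adjusted p = 4.1e-07) and JUNBi (0.77, adjusted p = 0.0023). In ETH the calls under YAPi (0.26, adjusted p = 0.3), TAZi (0.15, adjusted p = 0.66) and JUNBi (0.56, adjusted p = 0.3) were lost. The TAM effect under Ctrli became -0.58 (adjusted p = 0.035), and the interactions with YAPi (1.03, adjusted p = 0.00059) and STAT3i (1.20, adjusted p = 0.00063) were then called. Whether isoforms of CDH1 changed was not tested.

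**Figure D3:**
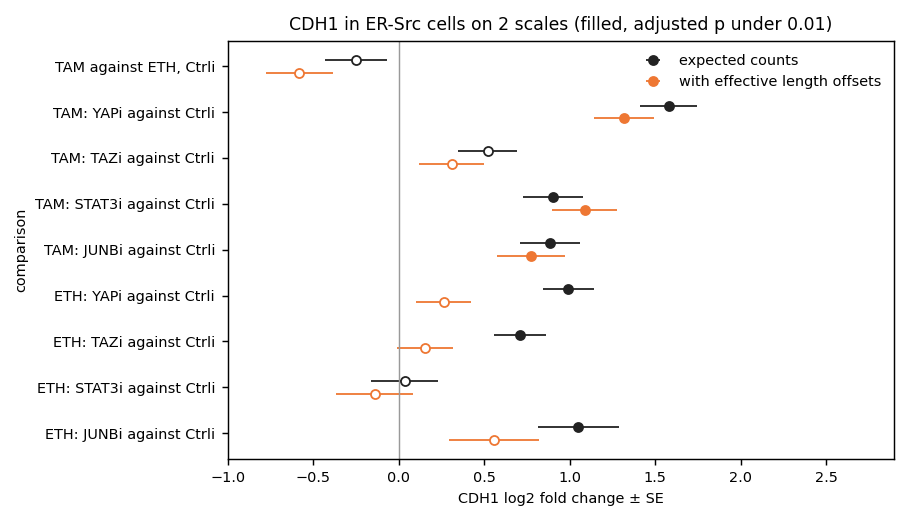
Log2 fold change of CDH1 (horizontal axis, bars ± SE) for 9 comparisons in ER-Src cells, from expected counts (black) and with effective length offsets (orange), with filled points where the adjusted p was under 0.01. The 3 rises in TAM were called on both scales, and the 3 rises in ETH on expected counts alone.

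TWIST1, on chromosome 7 (19020991 to 19117636), ZEB1, on chromosome 10 (31318495 to 31529814), ZEB2, on chromosome 2 (144364364 to 144521057), and CDH2 passed the test in none of the 13 ER-Src comparisons, and neither did VIM, on chromosome 10 (17228241 to 17237593). Their ranges over the 20 libraries were 3.30 to 8.33 TPM for TWIST1, 2.37 to 5.74 TPM for ZEB1, 0.96 to 2.88 TPM for ZEB2 and 2.13 to 6.76 TPM for CDH2. The antisense transcripts VIM-AS1 (2.82 TPM on average) and ZEB1-AS1 (2.03 TPM) overlap VIM and ZEB1 on the opposite strand, and no source used here says that counting used strand, so reads in the shared stretches cannot be told apart.

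Over the 20 ER-Src libraries, the genes whose log2(TPM + 1) was most alike to that of each of the 10 genes, among 6861 genes with a mean of at least 5 TPM, were listed by Pearson's r as a description. The libraries differ in treatment, siRNA and depth, which can raise r, and the largest of many values of r is high by selection. For CDH3 they were the metal transporters SLC39A8 (r = 0.96) and SLC39A14 (0.96) and CCDC71L (0.96). For FN1 they were the keratin KRT16 (0.91), the ferritin chain FTH1 (0.88) and the mitochondrial MT-TS1 (0.88), and for CDH1 they were BRI3 (0.88), CD24 (0.88) and ORMDL2 (0.86). SNAI2 (JAK1, 0.81) and ZEB2 (CLCA2, 0.78) had lower values, and SNAI1, below a mean of 1 TPM, was not ranked.

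In MDA-MB-231 set 1, the 4 knockdowns each differed from Ctrli in many genes, with 24.4% of 16582 genes called under YAPi, 32.8% of 17739 under TAZi, 35.6% of 19104 under YAPi TAZi and 27.5% of 17017 under TEADi. FN1 was at 240 and 275 TPM in the controls and at 10.3 and 15.0 TPM under YAPi, 16.9 and 20.75 TPM under TAZi, 10.2 and 23.96 TPM under TEADi and 56.8 and 60.7 TPM under YAPi TAZi. All 8 knockdown libraries lay below both of these controls. The set 2 controls, also MDA-MB-231 with control siRNA, were at 21.14 and 14.43 TPM, far below the set 1 controls and within the range of the set 1 knockdowns. In expected counts, FN1 fell under YAPi (-1.82 ± 0.14 SE, adjusted p = 2.5e-36), TAZi (-1.40 ± 0.12 SE, adjusted p = 1.6e-29) and TEADi (-1.49 ± 0.13 SE, adjusted p = 3.8e-30), but not under YAPi TAZi (0.22 ± 0.11 SE, adjusted p = 0.095), where effective length offsets turned the direction (-0.82, adjusted p = 0.00012). The differing share of RNAs without poly(A) tails and the knockdown cannot be told apart in these 4 comparisons.

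VIM was at 2524 and 2591 TPM in these controls and between 369 and 983 TPM in the 8 knockdown libraries. In expected counts it fell under YAPi (-0.52 ± 0.08 SE, adjusted p = 3.3e-10), TAZi (-0.84 ± 0.06 SE, adjusted p = 1.1e-44) and YAPi TAZi (-0.78 ± 0.07 SE, adjusted p = 1.9e-26), and the value under TEADi missed the threshold (-0.18 ± 0.07 SE, adjusted p = 0.023). SNAI2 was at 10.2 and 9.51 TPM in the controls and was called higher in all 4 knockdowns, by 2.42 ± 0.25 SE under YAPi, 2.38 ± 0.18 SE under TAZi, 1.48 ± 0.20 SE under YAPi TAZi and 2.89 ± 0.22 SE under TEADi, although its TPM under YAPi TAZi, 8.70 and 11.9, overlapped the controls. Under YAPi TAZi its call was lost without either control (adjusted p = 0.0382 and 0.055). ZEB1 was called higher in the 4 knockdowns by 0.49 to 1.02 in expected counts, while its TPM, 6.57 to 23.4, lay on both sides of the controls at 15.3 and 14.85 TPM, and each of these calls was lost without either control (adjusted p = 0.0159 to 0.458). SNAI1 was called under YAPi TAZi only, at 24 and 27 counts, or 4.93 and 6.01 TPM, against 1.5 and 1.33 TPM (3.39 ± 0.39 SE, adjusted p = 6.7e-17).

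The lists showed shifts in both directions against these controls. Of the epithelial list, 8 of 19 genes fell and 0 rose under YAPi, 9 of 20 fell under TAZi, 8 of 21 fell and 1 rose under YAPi TAZi, and 7 of 19 fell and 1 rose under TEADi, with the keratin KRT19 lower by 1.21 to 1.91 on the log2 scale in all 4. Of the mesenchymal list, 5 rose and 5 fell of 22 under YAPi, 7 and 7 of 22 under TAZi, 5 and 5 of 24 under YAPi TAZi and 6 and 7 of 22 under TEADi, with THBS1 higher in each. Among the other EMT factors TCF3 fell in all 4 knockdowns and HMGA2 rose under YAPi, YAPi TAZi and TEADi, and FAT1 and CTNNB1, the gene of beta-catenin, rose in all 4 knockdowns among the cadherin partners and relatives.

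**Figure D4:**
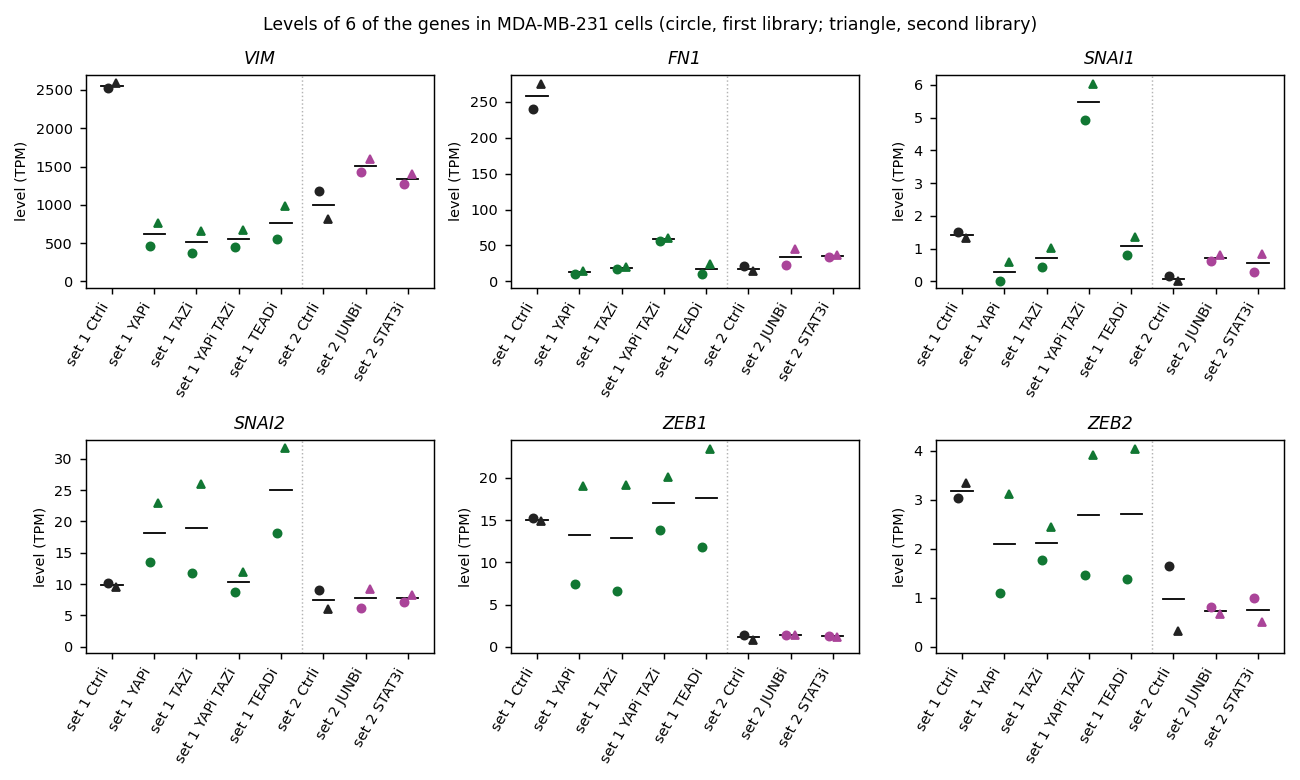
Level in TPM (linear axis, own scale for each gene) of 6 of the genes in the 16 MDA-MB-231 libraries, with set 1 left of the dotted line (controls black, knockdowns green) and set 2 right of it (controls black, knockdowns purple), circles for the first and triangles for the second library of a group, and black lines at the mean. VIM was at 2524 and 2591 TPM in the set 1 controls, above the other 14 libraries, and SNAI1 was at 4.93 and 6.01 TPM in the YAPi TAZi libraries, above the other 14.

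Comparisons of knockdown with knockdown in set 1 did not span that difference in the share of RNAs without poly(A) tails. There the first and second library of each group differed in length minus effective length. The main fits did not use the library number as a block, and values with this block are given beside them for some of the genes. FN1 was at 56.8 and 60.7 TPM under YAPi TAZi against 10.3 and 15.0 TPM under YAPi (2.04 ± 0.16 SE, adjusted p = 4.5e-33) and 16.9 and 20.75 TPM under TAZi (1.60 ± 0.13 SE, adjusted p = 1e-29). Both calls held without any 1 library and with the block (2.05, adjusted p = 3e-53, and 1.59, adjusted p = 2e-34). Against YAPi 4.83% of 8385 genes were called and 1 of 4 of the genes tested, and against TAZi 6.66% of 10374 and 2 of 6.

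SNAI1 had 24 and 27 counts under YAPi TAZi, 0 and 3 under YAPi, 3 and 6 under TAZi and 5 and 7 under TEADi. Both YAPi TAZi libraries were above all 6 others. It was called against TAZi (2.91 ± 0.78 SE, adjusted p = 0.0035), but without any 1 library DESeq2 gave no adjusted p, and likewise with the block. DESeq2 gave no adjusted p against YAPi (4.43 ± 1.21 SE, unadjusted p = 0.00025) and edgeR an adjusted p of 0.0092. Scaled for depth, its summed counts were 21.5 times those under YAPi (exact 95% interval 6.95 to 108) and 7.37 times those under TAZi (3.59 to 17.02), for counting error only. SNAI2 went the other way without passing, at 8.70 and 11.9 TPM under YAPi TAZi against 13.6 and 22.9 TPM under YAPi (-0.93 ± 0.36 SE, adjusted p = 0.099) and 11.8 and 26.0 TPM under TAZi (-0.91 ± 0.28 SE, adjusted p = 0.015).

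TEADi differed from YAPi TAZi in 3 of the 4 genes tested, with 4.67% of 9673 genes called. FN1 was lower, at 10.2 and 23.96 TPM against 56.8 and 60.7 TPM (-1.71 ± 0.14 SE, adjusted p = 7.7e-31). SNAI2 was higher, at 18.2 and 31.7 TPM against 8.70 and 11.9 TPM (1.41 ± 0.26 SE, adjusted p = 7.3e-06), and VIM was higher, at 555 and 983 TPM against 444 and 671 TPM, where the TPM overlapped (0.59 ± 0.13 SE, adjusted p = 0.00026). FN1 kept its call without any 1 library. SNAI2 lost it in each of the 4 such fits (adjusted p = 0.0215 to 0.203) and VIM without either TEADi library (0.0213 and 0.0724), and with the block both were called (1.40, adjusted p = 0.00022, and 0.59, adjusted p = 9.4e-07). With the block and effective length offsets together, an alternative added after seeing the data, SNAI2 lost its call (1.40, adjusted p = 0.025) and VIM and FN1 kept theirs (adjusted p = 3.8e-05 and 0.0037). SNAI1 was lower by 2.23 ± 0.74 SE with no adjusted p (unadjusted p = 0.0026).

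Between TAZi and YAPi 0 of the 4 genes tested passed in DESeq2 (0 in edgeR), with 2.02% of 7171 genes called and an unadjusted p under 0.05 for 2, VIM (-0.31 ± 0.10 SE, adjusted p = 0.049) and FN1 (0.43 ± 0.20 SE, adjusted p = 0.34). With the block the VIM difference was called (-0.31, adjusted p = 0.00012), at 369 and 659 TPM under TAZi against 469 and 763 TPM under YAPi, and with the block and effective length offsets together, an alternative added after seeing the data, it was not (-0.29, adjusted p = 0.16). In the mesenchymal list, AXL was lower by 0.94 ± 0.11 SE under TAZi.

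**Figure D5:**
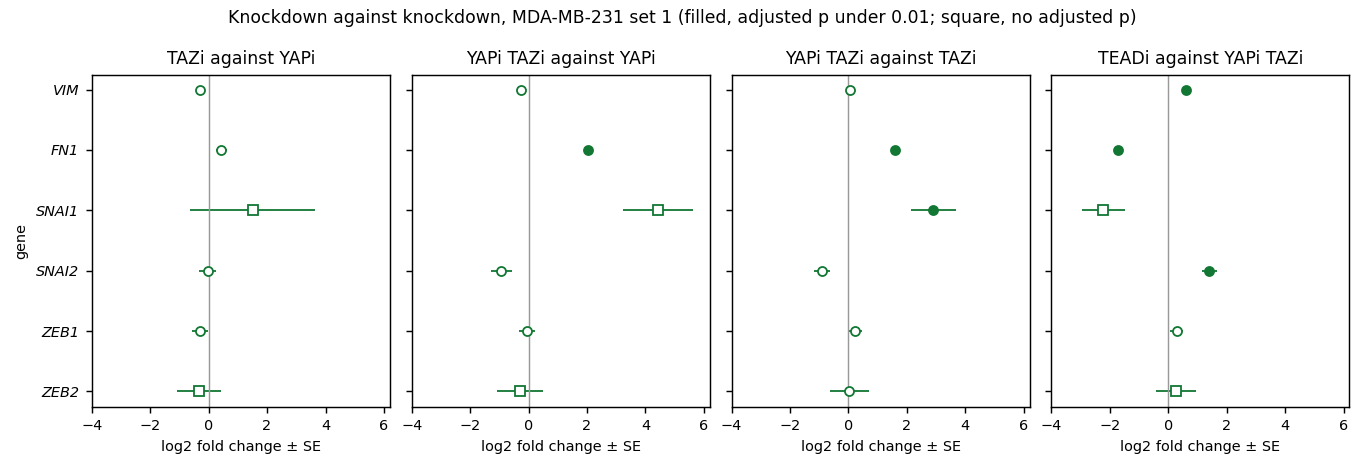
Log2 fold change of expected counts (horizontal axis, bars ± SE) of 6 of the genes between knockdowns of MDA-MB-231 set 1, with filled points where the adjusted p was under 0.01 and squares where DESeq2 gave no adjusted p. FN1 was higher under YAPi TAZi than under YAPi (2.04) or TAZi (1.60) and lower under TEADi than under YAPi TAZi (-1.71).

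In MDA-MB-231 set 2 none of the 10 genes was called. JUNBi against Ctrli called 3.41% of 7966 genes and 0 of 3 genes tested (VIM, FN1 and SNAI2), with 0 at an unadjusted p under 0.05 and 0 in edgeR. FN1 was at 23.3 and 45.8 TPM under JUNBi and 21.1 and 14.4 TPM under Ctrli (0.24 ± 0.28 SE, 95% interval -0.31 to 0.79, adjusted p = 0.66), and VIM at 1428 and 1599 TPM against 1185 and 817 TPM (0.33 ± 0.17 SE, adjusted p = 0.23), both without overlap in TPM. STAT3i against Ctrli called 0.497% of 2013 genes and 0 of 1 gene tested, VIM (0.28 ± 0.16 SE, adjusted p = 0.37), again 0 in edgeR. FN1 had the 1 unadjusted p under 0.05 in DESeq2 (0.60 ± 0.24 SE, unadjusted p = 0.014). JUNBi against STAT3i called 0.993% of 10981 genes and 0 of 4 genes tested, with 0 at an unadjusted p under 0.05 and 0 in edgeR. SNAI1 was at 18 and 10 counts under JUNBi, 4 and 11 under STAT3i and 2 and 0 under Ctrli, and ZEB2 did not exceed 1.64 TPM in these 6 libraries. In the mesenchymal list THBS1 (1.08 ± 0.23 SE, adjusted p = 0.00024) rose under JUNBi and the keratin KRT8 fell in the epithelial list (-0.68 ± 0.19 SE, adjusted p = 0.0089).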

How the data were processed

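RNA of 36 libraries in 18 groups of 2 was analysed. The authors aligned reads with STAR to hg38, kept at most 20 alignments per read and quantified GENCODE v30 genes with RSEM, and versions of these tools are not given in the sources used here. The deposited tables hold, per gene and library, expected counts (estimated, not normalized), TPM (normalized to transcript length and depth) and an effective length. Of 61471 rows per table, 746 that are no Ensembl genes were left out (0.0% to 0.109% of counts). Of the remaining 60725 IDs, 93.1% matched GENCODE 44, which gave names and coordinates.

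Expected counts were rounded and tested with DESeq2 1.42.0 (R 4.3.3) in 24 comparisons, each fitted on the groups it compares, with Benjamini-Hochberg adjustment over all genes, default independent filtering (filtered genes have no adjusted p) and a threshold of 0.01. The dispersion trend was parametric, except local for YAPi TAZi against Ctrli and against TAZi and for TEADi against YAPi TAZi. TPM gave levels. Counting intervals (95%) and the limit of 3 counts for a gene at 0 cover counting error only. The procedure was tested on simulated data. All 10 genes are named, and from lists of 26 epithelial, 26 mesenchymal, 15 other EMT factor and 15 cadherin partner and relative genes up to 3 per list and comparison, those called with a mean count of at least 50 and the lowest adjusted p. Genes most alike were ranked by Pearson's r of log2(TPM + 1), the log2 values being computed here from the deposited TPM. The 10 genes and the lists were chosen with earlier results of these data known.

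Alternatives were TMM size factors, edgeR 4.0.16, effective length offsets, a mean count of at least 10, one fit over all groups, a replicate block and leaving out each library. In the set 1 knockdowns same-numbered libraries had like values of length minus effective length, and their deviations correlated (r = 0.802 to 0.841), so these numbers pair the libraries. In ER-Src cells the labels give no such link. Some values of a list gene that the rule would name are not reported here.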

Additional observations from a re-analysis of the deposited data

Results flagged for a closer look

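The effect of STAT3i on CDH3 differed between TAM and ETH by -0.94 on the log2 scale (± 0.19 SE, adjusted p = 6.6e-05, DESeq2 interaction term), with CDH3 at 46.4 and 42.6 TPM under STAT3i in TAM against 81.2 and 74.9 TPM under Ctrli, and at 41.7 and 43.6 TPM against 40.2 and 36.8 TPM in ETH. The effect of JUNBi on FN1 differed between the states by -0.91 (± 0.21 SE, adjusted p = 0.0052), with FN1 at 32.8 and 27.75 TPM against 35.35 and 37.6 TPM in TAM and at 40.6 and 37.7 TPM against 26.4 and 26.05 TPM in ETH. Both are listed because the difference between states was itself tested and passed, and neither passed in edgeR (adjusted p = 0.029 and 0.26).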

How the results depend on the processing

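Of 41 called changes of the 10 genes, 21 were called under every alternative that gave a value. These include changes of FN1, SNAI2, VIM and SNAI1 in set 1 knockdowns against the set 1 controls. No alternative separates the knockdown from the difference between the libraries there. They also include SNAI1 under YAPi TAZi against TAZi, for which leaving out a library or adding the block gave no adjusted p. The single reversed result was FN1 under YAPi TAZi against Ctrli in MDA-MB-231 set 1, from 0.22 to -0.82 with effective length offsets. Counts of the genes called that moved by 1.5 times or more were the following, and smaller moves (of 1 gene among 4 or more, or between 3 and 4) are not listed. In edgeR they went to 0 for ETH JUNBi, TAM TAZi and the STAT3i and JUNBi interactions (1 each), to 1 for ETH TAZi (2), to 2 for YAPi TAZi against YAPi (1), to 3 for ETH YAPi (2) and to 2 for TEADi against YAPi TAZi (3). With effective length offsets they went to 0 for ETH JUNBi, TAM TAZi and the JUNBi interaction, to 1 for ETH TAZi, TAM JUNBi (2), the YAPi interaction (0) and YAPi TAZi against TAZi (2), and to 2 for the STAT3i interaction. TMM gave 1 for the YAPi interaction, and 3 for TAM JUNBi and ETH YAPi (2 each). A mean count of at least 10 gave 3 for TAM JUNBi and ETH YAPi and 2 for YAPi TAZi against YAPi. One fit over all groups gave 1 for ETH TAZi and TAZi against YAPi (0), 2 for the STAT3i interaction, and 3 for ETH YAPi and YAPi TAZi against YAPi.

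The replicate block gave 2 for TAM STAT3i (4), where SNAI1 (adjusted p = 0.017) and SNAI2 (0.051) lost their calls, 1 for ETH TAZi, where FN1 lost its call (0.43), 2 for the STAT3i interaction, and, in the set 1 knockdown pairs, 1 for TAZi against YAPi and 1 for YAPi TAZi against TAZi. In ER-Src cells the labels tie same-numbered libraries by number only, and r was -0.054 to 0.41 in the 2-group comparisons, 0.177 to 0.41 in those within ETH and -0.211 to 0.608 over the group pairs of the interactions. The block with effective length offsets, chosen after seeing the data, gave 2 for TEADi against YAPi TAZi and 1 for YAPi TAZi against TAZi. For JUNBi and STAT3i against Ctrli in set 2, no paired analysis was possible because controls and knockdowns share no replicate number.

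Leaving out 1 library gave 2 to 3 for TAM against ETH, 0 to 2 for ETH JUNBi, TAM JUNBi, TAM TAZi and the JUNBi and YAPi interactions, 0 to 1 for ETH TAZi, 1 to 2 for TAM STAT3i and TEADi against YAPi TAZi, 2 to 4 for YAPi TAZi against Ctrli, 2 to 3 for TEADi, 3 to 4 for YAPi and 1 for YAPi TAZi against TAZi. The lone library of a group is then assumed to vary like the other. With 2 libraries a group, and 1411304 to 2784605 counts in the set 1 knockdowns, SNAI1 rested on 0 to 27 counts there.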
